A study of Mus musculus with 11 samples.

Results

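Gene expression in the mesenchyme of the mouse lung was compared at day 14 between sham surgery and pneumonectomy (PNX), an operation that removes lung tissue, counted after the operation. The comparison took the 3 PNX and 2 sham libraries of that day, 5 of the 11 libraries of the series, by the surgery and day in their labels, and ran over all genes of the count table. The other 6 libraries, 3 PNX and 3 sham of day 7, entered the estimate of the spread between libraries and are given for comparison. All cells came from the lungs of C57BL6 mice and passed a sort that left out cells with EpCAM, CD45 or CD31, which mark epithelial, blood and endothelial cells. The sort keeps cells by what they lack, so each library mixes several mesenchymal cell types. Age, sex and the lobe removed are not given in the sources used here. Whether each replicate was another animal is not said in the labels. Y-linked counts, given below, differed within both groups, so the libraries of a group were not all repeats of the same material. The p-values reflect only how far these libraries vary, and part of that variation may be technical.

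After part of a lung is removed, the lobes that remain enlarge and form new alveoli, which is known as compensatory lung growth. Fibroblasts of the alveolar wall, adventitial fibroblasts around vessels and airways, smooth muscle cells, myofibroblasts, pericytes and the mesothelium of the pleura make up the mesenchyme. They lay down collagen and elastic fibres and send growth factors to the epithelium.

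Library depth and background differed most between the 2 sham libraries. Total counts were 2539628 in sham replicate 1, 9008592 in sham replicate 2, and 4733716 to 7895688 in the PNX libraries. Receptor genes of olfaction and the vomeronasal organ, not known from lung mesenchyme, took 1635 CPM (the read count of a gene scaled to the total of its library) in sham replicate 1, 92.8 CPM in sham replicate 2, and 125 to 448 CPM in PNX. Genes of low level followed the choice of sham library. For the 842 genes tested below a mean log2 CPM of 0, the median log2 fold change of PNX against sham was -1.61, and it was 1.22 without sham replicate 1 and -2.48 without sham replicate 2. For the 2826 genes at a mean log2 CPM of 6 or more the same medians were 0.15, -0.02 and 0.71. Y-linked genes had counts in sham replicate 2 and PNX replicate 1 and none in the other 3, so sex was not the same across the libraries of either group. Haemoglobin transcripts took 0.378 to 3.81% of counts in sham and 0.0344 to 9.06% in PNX. All 12 general markers of lung mesenchyme, Col1a2 and Dcn among them, had counts in every library. After PNX 9 of them were higher and 3 lower, with a median log2 fold change of 0.65. Summed over these markers, sham replicates 1 and 2 held 14190 and 18330 CPM. The sums for PNX replicates 1 to 3 were 26570, 28250 and 21310 CPM, which overlapped the 18210 to 28460 CPM of the day 7 sham libraries. Whether this difference had a part in the gene lists described below was not tested. Of the genes behind the sort, Pecam1 stood at 64.7 to 142 CPM and Epcam at 4.39 to 13.4 CPM over the 5 libraries.

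Over the whole table the difference at day 14 was called for 1 of 16011 genes. Angptl7 passed the threshold of 0.05 for the adjusted p (edgeR quasi-likelihood test, Benjamini-Hochberg adjustment), which is 0.00625% of the genes tested as higher, and 0 genes passed as lower. At an unadjusted p under 0.05, 510 genes were higher after PNX (3.19%) and 581 were lower (3.63%). The PNX and sham libraries did not overlap for 1533 genes that were higher (9.57%) and 1326 that were lower (8.28%). The sign was positive for 45.1% of genes, and the median log2 fold change was -0.07. Without sham replicate 1 that median was 0.06, and without sham replicate 2 it was 0.14. DESeq2 called 65 genes higher and 44 lower (0.406% and 0.275%), and edgeR on the 5 libraries of day 14 alone called 20 and 32 (0.142% and 0.227%). Against the sham libraries of both days together, edgeR called 34 higher and 9 lower (0.212% and 0.0562%). The plot of all genes shows the lower genes concentrated at low levels and Angptl7 among the well expressed genes.

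**Figure D1:**
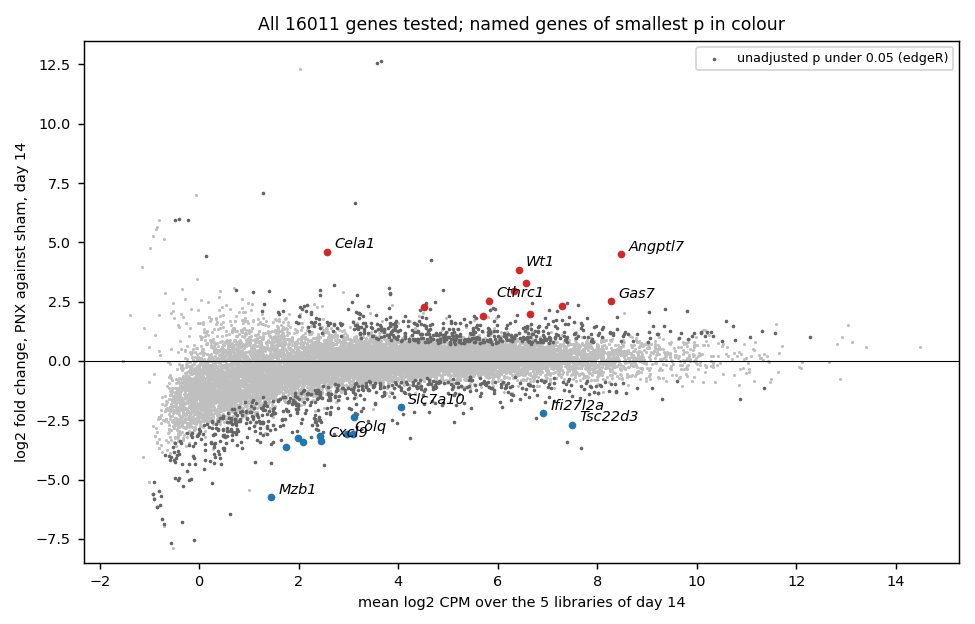
Log2 fold change of PNX against sham at day 14 (vertical axis) against the mean log2 CPM over the 5 libraries (horizontal axis) for the 16011 genes tested. Dark grey points have an unadjusted p under 0.05, and red and blue points are the named genes of smallest p, 11 higher and 12 lower; Angptl7 lies at 4.49 and Tsc22d3 at -2.69.

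Angptl7, which encodes a secreted angiopoietin-like glycoprotein, rose. It stood at 42.3 and 73.4 CPM in the sham libraries and at 793, 1231 and 1894 CPM in the PNX libraries. Every PNX library lay far above the higher sham library, and all 3 also lay above the 3 sham libraries of day 7, at 29.4 to 150 CPM. The change was 22.5-fold (4.49 on the log2 scale with an SE of 0.66, edgeR adjusted p = 0.0390). The call was lost without sham replicate 1 (adjusted p = 0.146), PNX replicate 2 (0.245) or PNX replicate 3 (0.253), at log2 fold changes of 4.14, 4.53 and 4.13. It was also lost with limma voom (0.198). The call held with DESeq2 (adjusted p = 2.95e-13) and with edgeR on the 5 libraries of day 14 (adjusted p = 0.000271). Angptl7 lies on chromosome 4 (148495183 to 148500460, minus strand, mm10) within intron 28 of Mtor, which runs on the opposite strand, and no exon of the pair overlaps. Mtor itself stood at 15.8 and 21.96 CPM in sham and at 17.5, 28.9 and 25.6 CPM in PNX, so its libraries overlapped. Of the 9 members of the angiopoietin-like list that were tested, 4 were higher and 5 lower, and without sham replicate 2 it was 8 and 1. Angptl4, which encodes an inhibitor of lipoprotein lipase, stood at 67.2 and 124 CPM in sham and 20.3, 62.0 and 67.9 CPM in PNX (-0.94 ± 0.54).

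The 11 other higher genes of smallest p did not pass the threshold, at adjusted p from 0.0652 to 0.0905. Counted with Angptl7, all 12 passed with DESeq2 and 9 with edgeR on the 5 libraries of day 14. With limma voom no gene passed. Wt1, the Wilms tumour transcription factor gene that marks mesothelium, stood at 16.1 and 19.5 CPM in sham and 143, 272 and 359 CPM in PNX (3.85 ± 0.65, adjusted p = 0.0652). Map3k1, a kinase gene of the MAP kinase cascade, stood at 17.1 and 34.2 CPM in sham and 85.3, 211 and 311 CPM in PNX (2.96 ± 0.52). Ncam1, which encodes a neural cell adhesion molecule, stood at 37.3 and 17.8 CPM in sham and 93.8, 406 and 291 CPM in PNX (3.27 ± 0.61). In these 3 genes PNX replicate 1 was the lowest of its group and still above both sham libraries. Gas7, which encodes a protein that binds the actin cytoskeleton, stood at 116 and 112 CPM in sham and 935, 374 and 646 CPM in PNX (2.52 ± 0.46), with PNX replicate 1 the highest. Cthrc1, the secreted protein gene that marks matrix-producing fibroblasts in injured lung, stood at 26.9 and 14.3 CPM in sham and 91.8, 159 and 100 CPM in PNX (2.53 ± 0.46, adjusted p = 0.0666).

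Cela1, which encodes an elastase that cuts elastic fibres, had 3 and 5 counts in the sham libraries and 51, 142 and 109 in PNX, or 1.01 and 0.610 CPM against 9.51, 22.3 and 24.5 CPM (4.60 ± 0.91, adjusted p = 0.0808). The connexin gene Gjb5, whose protein forms gap junctions, was alike in both sham libraries. It stood at 8.73 and 9.15 CPM in sham and 30.03, 60.1 and 38.9 CPM in PNX (2.26 ± 0.43), so every PNX library lay above both. Wisp1, a matricellular gene of the CCN family, stood at 17.1 and 31.1 CPM in sham and 69.4, 127 and 77.8 CPM in PNX (1.91 ± 0.39). Also among them were Mysm1, which encodes a histone deubiquitinase (2.32 ± 0.47), and Slc24a5, a cation exchanger gene (1.97 ± 0.38) that overlaps Myef2 on the opposite strand, so reads of that pair may have been shared.

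The neuropeptide gene Calca, which gives calcitonin and the calcitonin gene-related peptide, and its relative Calcb were also far apart between groups. Calca stood at 1.01 and 0.244 CPM in sham and 12.3, 78.6 and 63.4 CPM in PNX (6.66 ± 1.41, adjusted p = 0.178), and Calcb at 4.70 and 5.37 CPM against 21.1, 173 and 97.1 CPM (4.25 ± 1.20, adjusted p = 0.473). PNX replicate 1 was the lowest PNX library for both. Ccl21c, a gene for a chemokine that draws cells with the receptor Ccr7, had no count in either sham library of day 14. It stood at 97.0, 159 and 164 CPM in PNX, at least 523-fold higher against a floor of 3 counts over the 2 sham libraries. This floor covers the counting of reads and not the spread between libraries. Ccl21c did not pass in the main fit (edgeR adjusted p = 0.386), and it passed with DESeq2 and with edgeR on day 14 alone. The sham libraries of day 7 held 11.02 to 75.6 CPM of it, and its near-identical gene copies make the assignment of reads uncertain. Mmp10, a stromelysin gene, had 1 and 0 counts in sham and 6, 267 and 24 in PNX, so PNX replicate 2 held most of them.

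No gene passed as lower, and the 12 lower genes of smallest p had adjusted p from 0.0540 to 0.0928. All 12 passed with DESeq2 and with edgeR on the 5 libraries of day 14, and with limma voom no gene passed. Tsc22d3, which encodes a glucocorticoid-induced leucine zipper protein, stood at 295 and 875 CPM in sham and 110, 85.4 and 76.6 CPM in PNX (-2.69 ± 0.43, adjusted p = 0.0540). Colq, which encodes the collagen tail that anchors acetylcholinesterase, stood at 19.8 and 34.2 CPM in sham and 2.80, 3.14 and 3.60 CPM in PNX (-3.09 ± 0.52, adjusted p = 0.0652). Slc7a10, an amino acid transporter gene, stood at 32.3 and 40.9 CPM in sham and 8.02, 10.8 and 9.44 CPM in PNX (-1.96 ± 0.38, adjusted p = 0.0735). In Colq and Slc7a10 the PNX libraries differed little from each other. Fgfr4, a fibroblast growth factor receptor gene, stood at 13.8 and 32.1 CPM in sham and 5.41, 4.39 and 3.60 CPM in PNX (-2.37 ± 0.48). Ifi27l2a and Cxcl9, both induced by interferon, were lower as well. Ifi27l2a stood at 399 and 224 CPM in sham and 55.6, 90.2 and 55.5 CPM in PNX (-2.21 ± 0.41), and Cxcl9 at 17.1 and 22.7 CPM against 1.87, 1.88 and 2.02 CPM (-3.36 ± 0.62).

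The other 6 of the 12 are known from leukocytes: Mzb1 of plasma cells, Laptm5, C1qb and Plbd1 of myeloid cells, and S100a8 and S100a9 of neutrophils. Mzb1 had 50 and 220 counts in sham and 3, 0 and 3 in PNX, and S100a8 had 43 and 115 counts in sham and 10, 8 and 1 in PNX. The plot of values by library shows that the 12 lower genes split by their sham values at day 7. For 7 of the 12 lower genes the 3 PNX libraries of day 14 also lay below all 3 sham libraries of day 7. For Ifi27l2a, Laptm5, S100a8, Plbd1 and S100a9 they overlapped. Of the 12 higher genes, 9 lay above all 5 sham libraries, and Map3k1, Gas7 and Ncam1 overlapped those of day 7. Over all genes, the 3 PNX libraries lay above all 5 sham libraries for 4.06% and below them for 3.00%. The named genes were picked for no overlap at day 14 and a small p, so these shares are not a matched background. Of the 1533 higher genes without overlap at day 14, 650 lay above all 5 sham libraries. Of the 1326 lower ones, 481 lay below them.

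**Figure D2:**
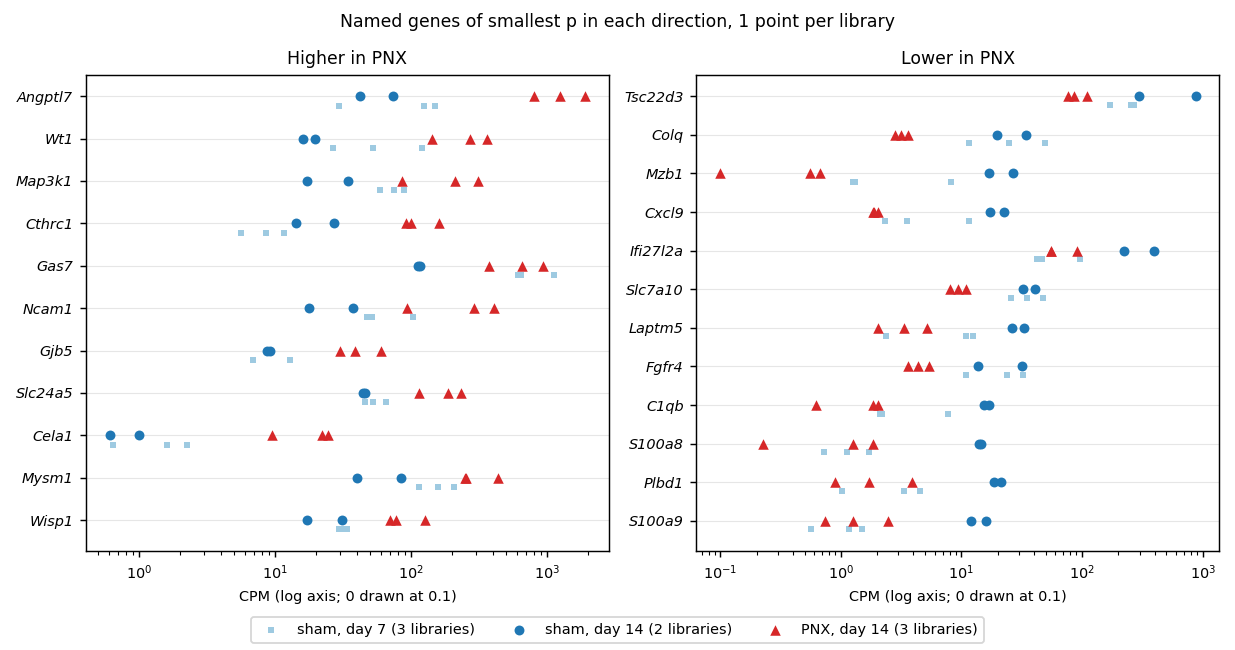
CPM on a log axis for the 11 higher (left) and 12 lower (right) named genes of smallest p, with 1 point per library: sham of day 14 (blue circles), PNX of day 14 (red triangles) and sham of day 7 (pale squares). Sham values of Gas7 at day 7 lie among the PNX values of day 14, and those of Angptl7 lie below them.

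Leukocyte markers were lower as a whole. All 47 members tested of the 4 leukocyte lists had a negative log2 fold change (54.8% of all genes). Of these, 27 had an unadjusted p under 0.05 (3.63%), and the groups did not overlap for 39 (8.28%). Their median was -2.31, beside -0.07 for all genes, and it was -2.27 without sham replicate 1 and -2.01 without sham replicate 2. The filter kept genes with enough counts in as few as 2 libraries, so a marker could pass through the 2 sham libraries alone. The shared sign and the lack of overlap may thus be fixed in part by the filter. With other members kept, 4 were higher and 47 lower without sham replicate 1, and 3 and 47 without sham replicate 2. Most of the 47 were genes of low level, where the median of all genes was negative as well. The 27 markers at a mean log2 CPM of 0 to 2 had a median of -2.54, beside -0.75 for all genes at that level, and the 14 at 2 to 4 had -1.71, beside -0.08. The 3 markers at 6 or more had -0.84, beside 0.15. Against the sham libraries of both days the median was -1.28, with 41 lower, 6 higher and 13 lower at an unadjusted p under 0.05. Their summed level was 2078 and 2177 CPM in sham and 940, 750 and 612 CPM in PNX, and the sham libraries of day 7 summed to 267 to 1113 CPM. The sham libraries of day 14 were thus the highest of the 5 sham libraries. Macrophage and monocyte markers gave 13 of 20 at an unadjusted p under 0.05, with Laptm5 at 33.3 and 26.2 CPM in sham and 5.22, 2.04 and 3.37 CPM in PNX (-3.06 ± 0.60, adjusted p = 0.0735). B and plasma cell markers gave 4 of 8, T and NK cell markers 4 of 10, and neutrophil markers 6 of 9, all lower, beside 3.63% of all genes.

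Jchain, which encodes the joining chain of secreted antibodies, made up most of the B and plasma cell sum, at 804 and 924 CPM in sham and 23.5, 43.8 and 174 CPM in PNX (-3.43 ± 1.47). Of the 53 leukocyte markers in the table, 0 and 1 had no count in the sham libraries and 5, 6 and 10 had none in PNX. Camp, a neutrophil granule gene, was among those with no count in each PNX library. Ptprc, which encodes CD45 itself, stood at 17.8 and 51.1 CPM in sham and 13.4, 10.04 and 16.4 CPM in PNX (-1.39 ± 0.48, adjusted p = 0.538), and the PNX and sham libraries did not overlap. In bulk libraries, fewer cells of a type and less RNA per cell cannot be told apart. The part of these leukocyte transcripts in the genes described below was not tested.

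**Figure D3:**
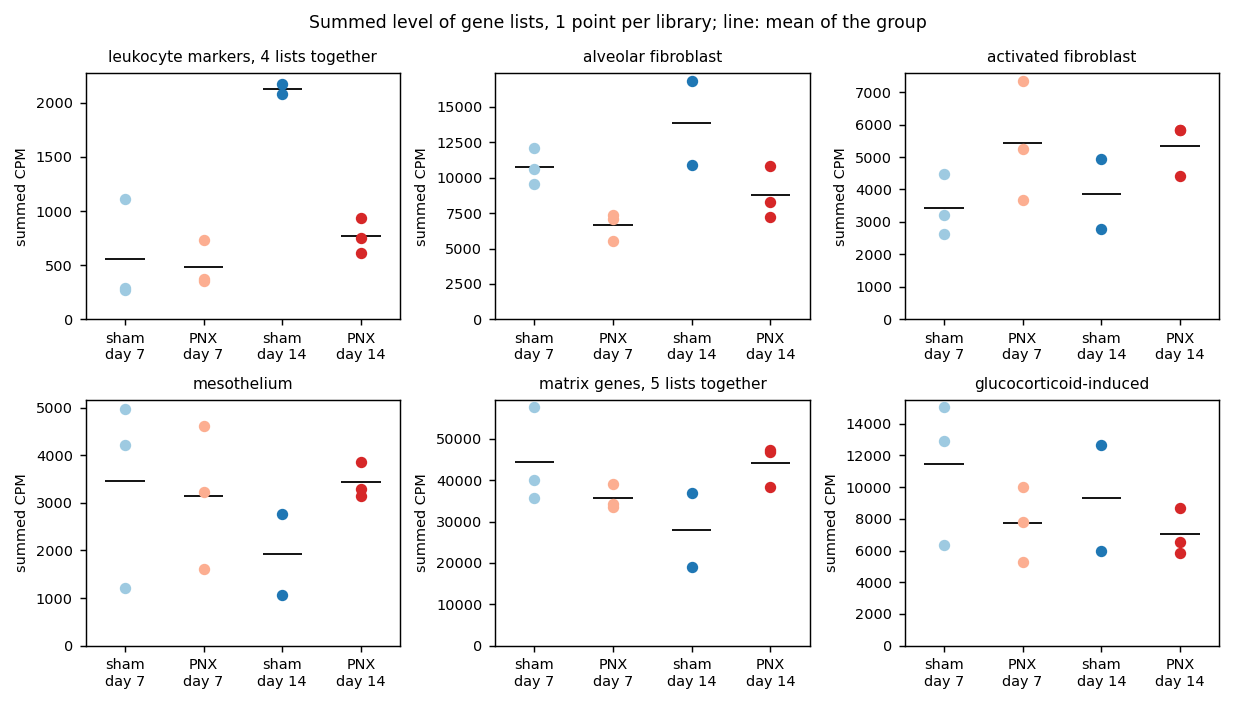
Summed CPM of 6 gene lists (vertical axes, from 0) in each of the 11 libraries, grouped by surgery and day, with the mean of each group as a line. The leukocyte markers sum to 2078 and 2177 CPM in sham at day 14 and to no more than 1113 CPM elsewhere.

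Genes of the extracellular matrix were mostly higher after PNX, and none passed the threshold. Of the 92 members of the 5 lists of collagens, elastic fibre, proteoglycan and basement membrane genes, 70 were higher and 22 lower. Over all genes 45.1% were higher. The share was 60.1% for genes at a mean log2 CPM of 4 to 6 and 64.1% at 6 or more. At an unadjusted p under 0.05, 18 of the 92 were higher (3.19% of all genes) and 3 lower (3.63%), with a median of 0.58. The summed level was lowest in sham replicate 1. The median was 0.37 without sham replicate 1, 1.18 without sham replicate 2 and 0.18 against the sham libraries of both days. Leaving out a sham library also moved the median of all genes, to 0.06 without replicate 1 and 0.14 without replicate 2. For all genes at a mean log2 CPM of 4 to 6, that median was 0.58 without sham replicate 2.

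Among the collagens of fibrils, Col3a1 stood at 1252 and 2568 CPM in sham and 4604, 4608 and 3684 CPM in PNX (1.17 ± 0.45), and Col5a2 at 121 and 267 CPM against 448, 499 and 376 CPM (1.18 ± 0.40). Both sham libraries lay below the PNX libraries for both genes, with sham replicate 1 the lowest. Col4a3, a collagen of the basement membrane, stood at 55.8 and 113 CPM in sham and 172, 416 and 324 CPM in PNX (1.84 ± 0.58, adjusted p = 0.468). Eln, which encodes elastin, was alike in both sham libraries, at 372 and 341 CPM, and stood at 1339, 773 and 850 CPM in PNX (1.47 ± 0.63, adjusted p = 0.691). Of the 19 elastic fibre genes, 17 were higher (45.1% of all genes), and 4 of these had an unadjusted p under 0.05 (3.19%). Fbln2, the fibulin gene, had the smallest (1.42 ± 0.50). The median of these 19 was 0.66, and 0.26 without sham replicate 1, with 12 higher and 7 lower. With both days of sham, 9 were higher and 10 lower (-0.03). Bmp1, a protease gene whose product trims procollagen, was the processing enzyme of smallest p, at 33.6 and 44.5 CPM in sham and 129, 133 and 98.2 CPM in PNX (1.61 ± 0.37, adjusted p = 0.128). The metalloprotease genes Adamts5 (1.55 ± 0.49) and Adam19 (1.23 ± 0.38) and the inhibitor gene Timp4 (1.23 ± 0.47) were higher without passing. In Col3a1, Eln, Fbln2 and Bmp1 the PNX libraries overlapped the sham libraries of day 7.

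Activated fibroblast genes had a median of 1.02. This list, whose members are known from fibroblasts in injured and fibrotic lung, had 15 of 18 members higher and 8 at an unadjusted p under 0.05, all higher (3.19% of all genes), and the groups did not overlap for 12 (9.57%). The median was 0.88 without sham replicate 1, with 3 at that p, and 1.44 without sham replicate 2, and 0.92 against the sham libraries of both days. For 7 of the 18 the PNX libraries lay above all 5 sham libraries (4.06% of all genes). Spp1, which encodes the matrix protein osteopontin, stood at 37.6 and 72.9 CPM in sham and 313, 255 and 167 CPM in PNX (2.14 ± 0.72, adjusted p = 0.532). Inhba, the activin A subunit gene, stood at 6.38 and 13.4 CPM in sham and 31.3, 30.8 and 22.03 CPM in PNX (1.47 ± 0.51). Fn1, the fibronectin gene, stood at 367 and 729 CPM against 1032, 1160 and 980 CPM (0.95 ± 0.41), so the groups were apart in all 3 genes.

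The mesothelium list had all 14 members higher (45.1% of all genes), 5 at an unadjusted p under 0.05 (3.19%), and a median of 0.94. Without sham replicate 1 the median was 0.63 with 11 of 14 higher, without sham replicate 2 it was 1.499, and against the sham libraries of both days it was 0.61, also with 11 higher. Next to Wt1, Krt18, a keratin gene, stood at 65.2 and 56.4 CPM in sham and 176, 171 and 165 CPM in PNX (1.49 ± 0.40, adjusted p = 0.261). Upk1b, a uroplakin gene, stood at 345 and 719 CPM in sham and 721, 996 and 1064 CPM in PNX (0.80 ± 0.53), where sham replicate 2 came close to the lowest PNX library. Nkain4 was higher too (1.06 ± 0.44). The epithelial list holds none of the keratins of the mesothelium list, and any epithelial part in those was not tested. At an unadjusted p under 0.05, 0 members of the epithelial list were higher (3.19% of all genes) and 3 lower (3.63%). Of the 15 members tested in this list, 6 were higher and 9 lower (median -0.32). Its direction followed the sham library, with 13 higher and 2 lower without sham replicate 1 (median 1.16) and 4 and 11 without sham replicate 2 (-0.77).

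Smooth muscle and contractile genes were higher for 15 of 18 members (45.1% of all genes), 3 of them at an unadjusted p under 0.05 (3.19%). The median was 0.52, and 0.35 without sham replicate 1, 1.01 without sham replicate 2 and 0.21 against both sham groups. Myh11, the smooth muscle myosin heavy chain gene, stood at 98.1 and 315 CPM in sham and 554, 542 and 470 CPM in PNX (1.33 ± 0.46), and Acta2, the smooth muscle actin gene, at 886 and 1113 CPM against 1818, 1890 and 1420 CPM (0.77 ± 0.40). Both were apart between the groups, and none of the 18 had an unadjusted p under 0.05 without sham replicate 1. Pericyte markers were split, with 8 of 14 higher and 6 lower (median 0.11, and -0.01 on total counts, -0.18 without sham replicate 1 and 0.82 without sham replicate 2). Cox4i2, a cytochrome oxidase subunit gene of pericytes, stood at 37.3 and 37.2 CPM in sham and 17.2, 16.8 and 15.5 CPM in PNX (-1.17 ± 0.39). Pdgfrb, the platelet-derived growth factor receptor gene of pericytes and fibroblasts, stood at 27.2 and 44.6 CPM against 75.9, 69.4 and 58.7 CPM (0.91 ± 0.46).

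Alveolar fibroblast genes were mostly lower. Of 18 members 16 were lower (54.8% of all genes), 7 at an unadjusted p under 0.05 (3.63%), and the median was -0.62. Slc7a10 and Fgfr4 belong to this list. Wnt2, a Wnt ligand gene, stood at 49.7 and 88.1 CPM in sham and 27.98, 35.5 and 16.2 CPM in PNX (-1.38 ± 0.38, adjusted p = 0.294), and the chemokine gene Cxcl14 at 515 and 836 CPM against 291, 242 and 267 CPM (-1.34 ± 0.36, adjusted p = 0.271). Tcf21, a transcription factor gene of lung fibroblasts, stood at 29.9 and 30.01 CPM in sham and 12.5, 15.7 and 8.09 CPM in PNX (-1.30 ± 0.39). For these 5 genes the PNX libraries lay below all 5 sham libraries. The median was -1.18 without sham replicate 1 and 0.14 without sham replicate 2, beside 0.06 and 0.14 for all genes. With the sham libraries of day 14 alone, the sign of the list median thus rested on sham replicate 2. Against the sham libraries of both days the median was -0.76, with 16 lower. In PNX against sham at day 7 it was -0.84, with 17 lower.

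Lipid-storing fibroblast genes were lower for 9 of 12, 2 at an unadjusted p under 0.05, beside 3.63% of all genes (median -0.71). The median was -0.30 without sham replicate 1, with 5 higher and 7 lower, and -0.27 against the sham libraries of both days. G0s2, which encodes an inhibitor of triglyceride breakdown, stood at 310 and 224 CPM in sham and 62.5, 167 and 52.4 CPM in PNX (-1.51 ± 0.47). Lpl, the lipoprotein lipase gene, went the other way, at 120 and 148 CPM in sham and 201, 215 and 234 CPM in PNX (0.69 ± 0.35). Adventitial fibroblast genes gave 12 higher and 5 lower of 17, and 1 was higher at an unadjusted p under 0.05 (3.19% of all genes). This was Mfap5, a microfibril gene, at 1066 and 1353 CPM in sham and 2261, 2239 and 2201 CPM in PNX (0.89 ± 0.42). The median of the adventitial list was 0.26, and it was 0.10 without sham replicate 1 and 1.21 without sham replicate 2. With both days of sham, 8 were higher and 9 lower (-0.20). The PNX values of Mfap5 lay close together and above all 5 sham libraries.

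**Figure D4:**
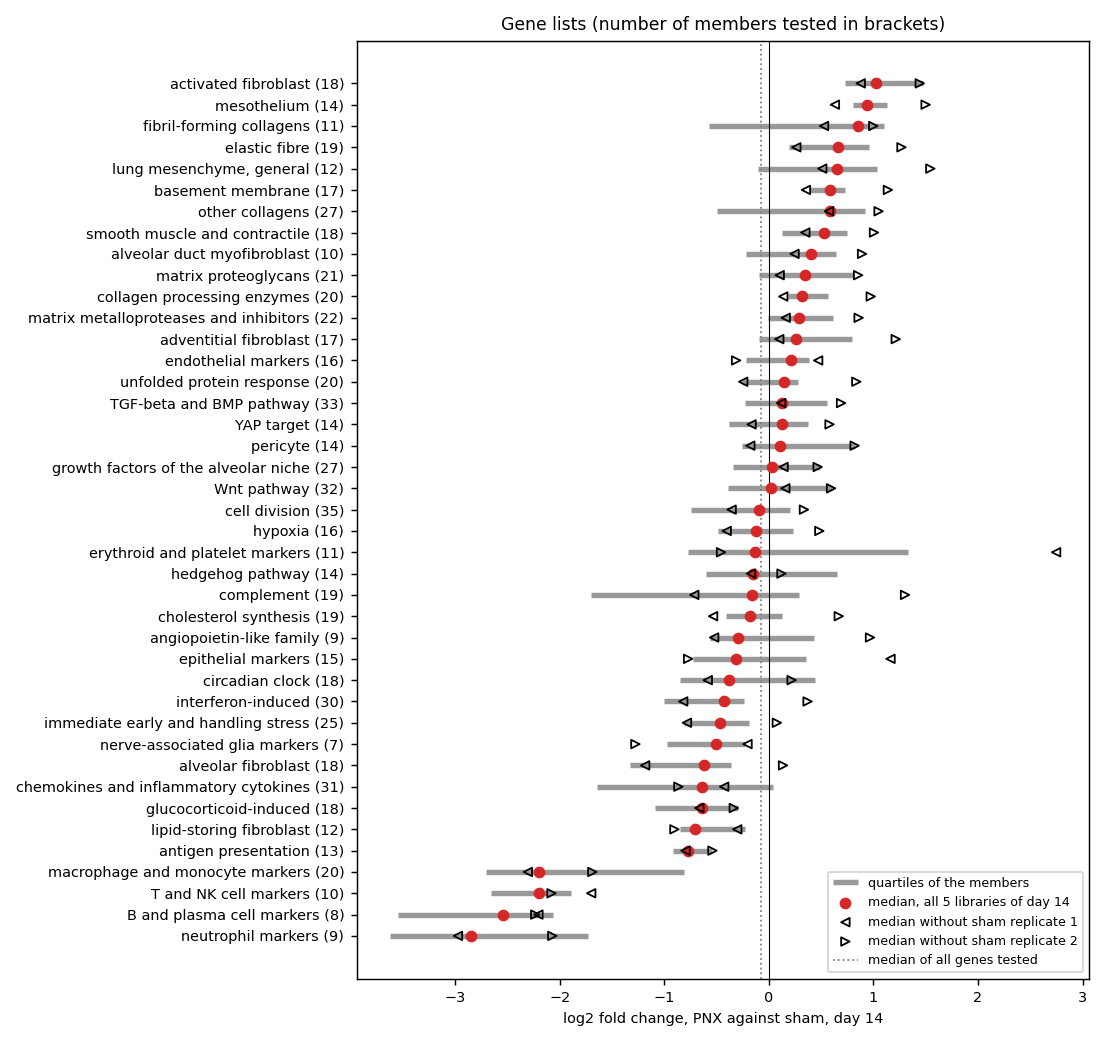
Median log2 fold change of PNX against sham at day 14 for each gene list (red), with the quartiles of its members (grey bars) and the median without sham replicate 1 or 2 (triangles); the dotted line is the median of all genes. Activated fibroblast genes lie at 1.02 and neutrophil markers at -2.85, and the median of the alveolar fibroblast list lies at 0.14 without sham replicate 2.

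Signalling genes were split, and none passed. Of 27 growth factor genes of the alveolar niche, 14 were higher and 13 lower (median 0.03, and -0.30 on total counts). Ligand genes that were higher included Pdgfc, a platelet-derived growth factor, at 2.35 and 6.22 CPM in sham and 11.2, 20.2 and 15.3 CPM in PNX (1.79 ± 0.53), and Fgf1, at 21.2 and 34.6 CPM against 55.2, 73.6 and 87.7 CPM (1.36 ± 0.52). Igf1 overlapped, at 230 and 682 CPM in sham and 666, 1074 and 1564 CPM in PNX (1.27 ± 0.52). The Wnt list had 18 higher and 14 lower of 32 (median 0.02, and -0.06 on total counts). Znrf3, which encodes an inhibitor of Wnt receptors and is itself a Wnt target, stood at 45.4 and 90.8 CPM in sham and 116, 167 and 211 CPM in PNX (1.27 ± 0.42). Rspo1, a Wnt agonist gene, stood at 15.1 and 13.9 CPM against 25.7, 32.0 and 38.7 CPM (1.15 ± 0.49). Of 14 hedgehog genes, 5 were higher and 9 lower. The 3 at an unadjusted p under 0.05 were all higher (3.19% of all genes). These were the coreceptor genes Cdon (1.20 ± 0.39) and Gas1 (0.86 ± 0.35) and the transcription factor gene Gli3 (0.76 ± 0.34). TGF-beta and BMP genes gave 20 higher and 13 lower of 33 (median 0.13). Inhba and Tgfb2 (0.81 ± 0.39) were higher at an unadjusted p under 0.05, beside 3.19% of all genes. None of the 14 YAP target genes reached that p. Without sham replicate 2 all 5 of these lists had a positive median, as did all genes (0.14). The list medians then ran from 0.12 for hedgehog to 0.69 for TGF-beta and BMP genes. Against the sham libraries of both days the Wnt median was -0.29 and the YAP target median -0.15.

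Glucocorticoid-induced genes were lower for 17 of 18 members, 5 of them at an unadjusted p under 0.05 (3.63% of all genes were lower at that p). The median was -0.64, and -0.67 and -0.34 without sham replicates 1 and 2. Next to Tsc22d3, Sgk1, a kinase gene of salt transport and cell survival, stood at 174 and 249 CPM in sham and 120, 114 and 59.6 CPM in PNX (-1.11 ± 0.38, adjusted p = 0.516). Mt2, a metallothionein gene, stood at 178 and 105 CPM against 78.0, 48.8 and 35.7 CPM (-1.38 ± 0.49). Zbtb16, a zinc finger gene, overlapped, at 12.4 and 113 CPM in sham and 19.96, 3.77 and 7.42 CPM in PNX (-2.61 ± 0.76), with sham replicate 2 far above the rest. For Tsc22d3 the PNX libraries lay below all 5 sham libraries, and for Sgk1 and Mt2 they overlapped those of day 7. The clock genes Nr1d1 and Dbp, which cycle with the time of day, were lower too, Nr1d1 at 59.5 and 160 CPM in sham and 13.1, 37.5 and 33.3 CPM in PNX (-1.98 ± 0.67). Of the 18 clock genes, 10 were lower and 8 higher (median -0.38, and 0.22 without sham replicate 2). The hour at which the cells were taken is not given in the sources used here.

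The glucocorticoid receptor binds a palindrome of hexamers with a spacer, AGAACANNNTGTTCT. It was looked for on both strands in RefSeq promoter windows of GRCm38.p6, from 250 bases before to 50 after each start. In 32851 windows of all genes 3 held it (0.00913%). Of the 18 listed genes, 16 had windows, 26 in all, and 1 window, of Sgk1, held it. The stretch before that start is shown, 5′ to 3′, because it carries the motif (capitals) in a gene of the list, at chr10:21993640-21993889 on the plus strand, with the motif beginning 189 bases before the start.
Sgk1: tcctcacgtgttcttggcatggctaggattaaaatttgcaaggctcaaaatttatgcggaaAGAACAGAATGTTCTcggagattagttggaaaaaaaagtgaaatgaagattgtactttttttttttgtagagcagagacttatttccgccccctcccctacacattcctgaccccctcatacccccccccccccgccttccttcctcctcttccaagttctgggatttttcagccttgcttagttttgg
The single hexamer AGAACA occurred in 19% of all windows and in 4 of the 26, of Sgk1 and Tsc22d3. A match describes these letters only, and binding was not measured.

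Interferon-induced genes were lower for 24 of 30 members (median -0.43). At an unadjusted p under 0.05, 6 were lower (3.63% of all genes) and 1 was higher (3.19%). The higher one was Rsad2, an antiviral enzyme gene, which overlapped at 14.1 and 10.002 CPM in sham and 9.51, 70.9 and 50.1 CPM in PNX (1.87 ± 0.63). Irf7, the transcription factor gene of the response, stood at 19.5 and 28.2 CPM in sham and 10.6, 9.73 and 12.4 CPM in PNX (-1.14 ± 0.42). The median of the list was -0.82 without sham replicate 1 and 0.37 without sham replicate 2, beside 0.06 and 0.14 for all genes. Of 31 chemokine and cytokine genes 22 were lower, 9 at an unadjusted p under 0.05 (3.63% of all genes). The groups did not overlap for 16 that were lower (8.28%). The median was -0.64, and against the sham libraries of both days it was -0.08, with 4 higher and 2 lower at that p. In that contrast 1047 of all 16011 genes were higher and 1127 lower at the same p. Ccl6, a chemokine gene of myeloid cells, stood at 166 and 140 CPM in sham and 43.1, 30.6 and 44.7 CPM in PNX (-1.96 ± 0.45, adjusted p = 0.137), and Il1b at 15.1 and 13.8 CPM against 5.41, 1.88 and 2.02 CPM (-2.21 ± 0.68). The sham libraries of day 7 averaged 10.8 CPM of Ccl6 and 2.08 CPM of Il1b, below the sham values of day 14.

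Complement genes gave 12 lower and 7 higher of 19 (median -0.16). The direction of the list rested on the sham library, with 16 lower and 3 higher without sham replicate 1 (-0.71) and 7 lower and 12 higher without sham replicate 2 (1.30). C1qa, C1qb and Cfp, which macrophages and other myeloid cells make, were lower, C1qb at 15.5 and 16.8 CPM in sham and 1.87, 0.628 and 2.02 CPM in PNX (-3.43 ± 0.71). Clu, which encodes clusterin, an extracellular chaperone that also restrains complement, was higher, at 168 and 403 CPM in sham and 1037, 2060 and 843 CPM in PNX (2.199 ± 0.62, adjusted p = 0.342), and its PNX libraries lay above all 5 sham libraries. The C1q genes are also members of the macrophage and monocyte list, so that list and their values are not separate measurements. The leukocyte marker sums above moved with the Cfp, Ccl6 and Il1b values, and their part was not tested.

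Cell division genes gave 14 higher and 21 lower of 35 (median -0.10, and 0.34 without sham replicate 2). At an unadjusted p under 0.05, 0 were higher (3.19% of all genes) and 3 lower (3.63%). Mki67, the marker of cycling cells, stood at 24.2 and 12.4 CPM in sham and 6.53, 13.3 and 11.9 CPM in PNX (-0.77 ± 0.47), so the groups overlapped. Of 19 cholesterol synthesis genes, 0 were higher and 1 lower at that p, and of 16 hypoxia genes 1 and 2. Egln3, an oxygen sensor gene of the hypoxia list, stood at 1.34 and 1.59 CPM in sham and 8.77, 8.32 and 5.17 CPM in PNX (2.31 ± 0.62).

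Whether the effect of PNX differed between days was tested as the difference between the log2 fold changes at day 14 and day 7. No gene passed the threshold with edgeR, while 666 were higher and 736 lower at an unadjusted p under 0.05 (4.16% and 4.6%), and DESeq2 called 47 and 55. Ifi27l2a had the smallest p, with a log2 fold change of -2.21 at day 14 and 1.43 at day 7 (difference -3.64 ± 0.56, adjusted p = 0.0724). At day 7 it stood at 42.5 to 97.1 CPM in sham and 147 to 183 CPM in PNX. S100a9 (-4.73 ± 0.94), Mki67 (-3.41 ± 0.63), Cfd, which encodes complement factor D (-5.11 ± 0.93), and Cks2, a cell cycle gene (-3.63 ± 0.72), followed, at adjusted p from 0.160 to 0.168.

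In the other direction were Map3k1 (3.67 ± 0.65), Gas7 (3.22 ± 0.59), Wt1 (3.73 ± 0.78), Dpysl2, which encodes a protein that binds tubulin (2.62 ± 0.57), and the linker histone gene H1f0 (2.55 ± 0.56), at adjusted p from 0.160 to 0.204. Sham levels of these genes also differed between days. Gas7 stood at 613 to 1118 CPM in sham at day 7 and at 112 and 116 CPM in sham at day 14, and Dpysl2 at 2394 to 4170 CPM and at 743 and 814 CPM. In PNX Gas7 stood at 430 to 542 CPM at day 7 and 374 to 935 CPM at day 14. Angptl7 stood at 217 to 297 CPM in PNX at day 7, between its sham and PNX levels of day 14 (difference 3.11 ± 0.75, adjusted p = 0.283). A lower effect at day 14 had an unadjusted p under 0.05 for 4.6% of all genes. It did so for 15 of 35 cell division genes and 13 of 30 interferon-induced genes, whose medians at day 7 were 1.23 and 0.70. Leukocyte markers had 19 of 47 at that p, with a median at day 7 of 0.14. Among them were 10 of 20 macrophage and monocyte markers and 6 of 9 neutrophil markers.

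**Figure D5:**
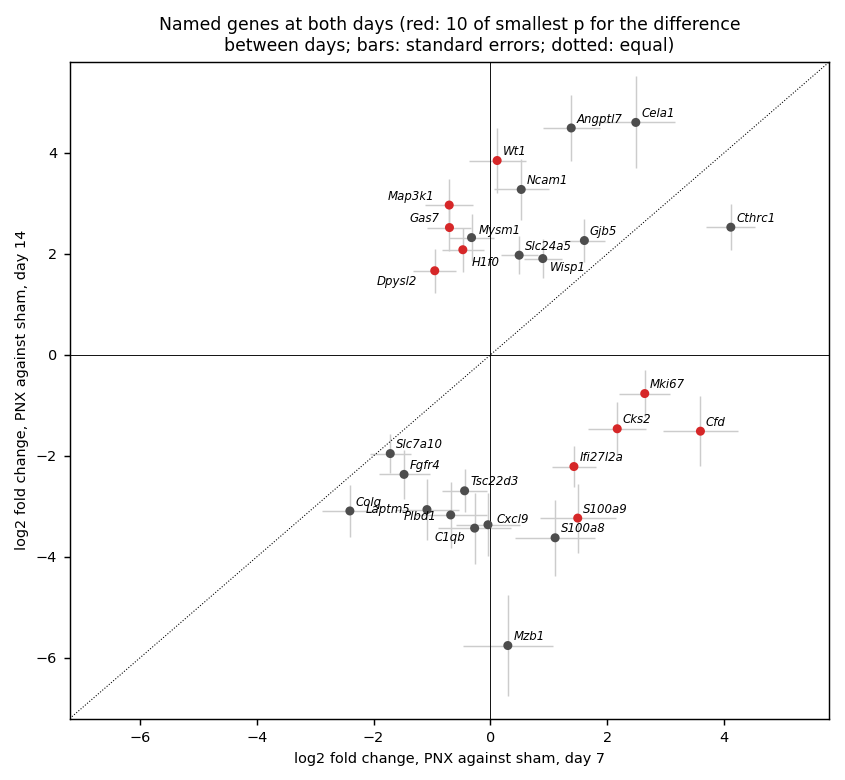
Log2 fold change of PNX against sham at day 14 (vertical axis) and day 7 (horizontal axis) for the named genes of smallest p and the 10 of smallest p for the difference between days (red), with standard errors as bars. Angptl7 lies at 1.38 and 4.49, Cthrc1 at 4.11 and 2.53, and Ifi27l2a at 1.43 and -2.21.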

How the data were processed

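RNA was sequenced from sorted lung mesenchyme after PNX or sham surgery, 3 libraries a group at day 7 and 3 PNX and 2 sham libraries at day 14. The deposited table holds whole-number read counts per gene symbol for 24411 genes and 11 libraries, not normalized. The submitters' processing notes name bcl2fastq 2.20.0.422 and the build mm10. The aligner, the counter, the annotation and the strand setting are not given in the sources used here, so reads of overlapping or near-identical genes may be shared.

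Groups were taken from the labels. Genes were kept with filterByExpr by group, which removed 8400 and left 16011, and libraries were scaled with TMM factors. The comparison used the quasi-likelihood test of edgeR 4.0.16 (R 4.3.3, robust fit) on 4 group means over all 11 libraries with 7 residual degrees of freedom, and Benjamini-Hochberg adjustment over the genes kept, and called a gene at an adjusted p under 0.05. Standard errors were the absolute log2 fold change divided by the square root of F. CPM used TMM library sizes. Alternatives used DESeq2 1.42.0, limma 3.58.1 (voom), other scalings, filters, covariates and subsets of libraries. The scripts were tested on simulated data. Figures were drawn with matplotlib 3.10.9 in Python 3.11.15.

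Symbols were matched to GENCODE M21 for positions, which covered 98.5% of the genes. Muc16, Ighm, Igkc, Trbc2 and Ly6g are not in the count table and drop out of their lists. Gene lists and the rule for named genes were chosen with earlier results of these data known. By that rule, genes without a predicted or clone name, with a mean log2 CPM of at least 1 at day 14 and groups that did not overlap, were named where they passed the threshold, were among the 12 of smallest p in each direction, or had the 8 largest fold changes in each direction at an unadjusted p under 0.01. Added to these were the 5 genes of smallest p in each direction for the difference between days and, overlapping or not, the 4 members of smallest p and the 2 of highest level in each list, and the genes behind the sort. Mtor, Myef2, Camp and the 8 genes described from the contrast with both sham groups were picked after their values were seen. 1 of the higher genes of smallest p is not reported here.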

Additional observations from a re-analysis of the deposited data

How the results depend on the processing

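For PNX against sham at day 14, the counts of genes past the threshold (1 higher, 0 lower) depended on the test and on single libraries. DESeq2 gave 65 higher and 44 lower, edgeR on the 5 libraries of day 14 gave 20 and 32, no filter on low counts 14 and 13, a covariate for olfactory receptor counts 23 and 12, and the contrast with both sham groups 34 and 9. Total counts gave 2 and 1, RLE factors 1 and 1, and a GC offset 1 and 1. limma voom, a test against a fold of 1.5 and a covariate for Y-linked counts gave 0 and 0. Leaving out 1 library gave 0 to 60 higher and 0 to 14 lower: 60 and 14 without sham replicate 2, 2 and 9 without sham replicate 1, 4 and 1 without PNX replicate 1, and 0 and 0 without PNX replicate 2 or 3. Without a library of day 7 the counts were 1 to 13 higher and 0 to 12 lower. They were 13 and 12 without sham replicate 2 of that day, 7 and 11 without its sham replicate 3, 1 and 4 without its sham replicate 1, 3 and 3 without its PNX replicate 1, and 7 and 3 without its PNX replicate 3.

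For the difference between days (0 and 0), DESeq2 gave 47 higher and 55 lower, no filter 2 and 6, and limma voom, total counts and the Y-linked covariate 0 and 1 each. Leaving out 1 library gave 0 to 250 higher and 0 to 120 lower. They were 250 and 120 without sham replicate 2 of day 14, 2 and 3 without its sham replicate 1, and 1 and 0 without its PNX replicate 1. Without sham replicate 2 of day 7 they were 6 and 7, and without its sham replicate 1 they were 0 and 2.

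The log2 fold change of Angptl7 was positive in every setting and 4.13 to 5.10 without 1 library. Its call was lost at 4.46 with limma voom (adjusted p = 0.198), 4.49 against a fold of 1.5 (0.0560) and 4.35 with the Y-linked covariate (0.0693), besides the libraries named with its result. Deviations of same-numbered libraries of day 14 from their group means had r = 0.10 and 0.18 over genes (2 pairs). PNX replicate 3 with sham replicate 1, of unlike number, had 0.10. With 2 sham libraries the deviations mirror each other, so these values cannot show whether a number pairs libraries. No label ties a number to an animal or day. With the replicate number as a block the counts were 0 and 0 at day 14 and 0 and 1 for the difference between days, and Angptl7 stood at 4.22 (edgeR adjusted p = 0.0605), or 4.21 with a GC offset as well, where 0 and 0 genes passed at day 14.

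Of the genes named in the text, Epcam reversed, from -0.68 to 0.35 against both sham groups and to 0.30 without sham replicate 1, with a range of -1.15 to 0.30 without 1 library. Total counts shifted the median of all genes by -0.19 on the log2 scale, and 33.8% of genes were then higher, beside 45.1% with TMM. Leaving out sham replicate 2 shifted it by 0.12. With 2 sham libraries, 1 of them at 2539628 counts, differences of genes of low level were the least precise.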

Other observations

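Against the sham libraries of both days, edgeR called 34 genes higher (0.212%) and 9 lower (0.0562%). This contrast sets day 14 against day 7 libraries in part, so time cannot be told apart from surgery in it. Gata6, a transcription factor gene expressed in mesothelium, was among the higher ones, at 17.7 to 30.6 CPM in the 5 sham libraries and 57.5, 64.3 and 63.8 CPM in PNX (log2 fold change 1.40, adjusted p = 0.0314). It overlaps an antisense gene, with which reads may have been shared. Npl, which encodes an enzyme that breaks down sialic acid, stood at 0.984 to 1.83 CPM in sham and 9.70, 21.5 and 14.8 CPM in PNX (3.44, adjusted p = 0.0152 by edgeR). Anxa8, an annexin gene, stood at 4.94 to 21.1 CPM against 43.1, 69.7 and 46.3 CPM (2.23). Rarres1, a gene induced by retinoic acid (2.52), and the p38 kinase gene Mapk13 (1.98) passed as well. In all 5 genes every PNX library lay above every sham library.

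Among the lower ones were Klf15, a transcription factor gene that glucocorticoids induce, and Gja5, a connexin gene of arteries. Klf15 stood at 15.04 to 29.0 CPM in the 5 sham libraries and 6.90, 2.67 and 4.50 CPM in PNX (-2.17, adjusted p = 0.0262 by edgeR). Gja5 stood at 37.0 to 99.2 CPM against 21.6, 17.6 and 10.6 CPM (-1.99). Bcl2l1, an inhibitor gene of cell death, stood at 99.7 to 281 CPM in sham at day 7, 35.9 and 101 CPM in sham at day 14, and 34.5, 14.4 and 11.9 CPM in PNX, so sham replicate 1 of day 14 lay close to the highest PNX library. Against the sham libraries of day 14, none of these 8 genes passed in the edgeR fit over all 11 libraries, at adjusted p from 0.119 to 0.369. Anxa8, Npl and Rarres1 passed in the edgeR fit on the 5 libraries of day 14. With DESeq2 all of the 8 but Bcl2l1 passed against the sham libraries of day 14.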
